A study of Mus musculus with 2 samples.

Results

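Blood endothelial cells are recognised by a shared set of genes, of which 10 were followed in RNA-seq of the whole omentum. These were Pecam1, Cdh5, Esam and Cldn5, which encode proteins of the contacts between endothelial cells, the VEGF receptors Kdr and Flt1, the angiopoietin receptor Tek with its relative Tie1, the guidance receptor Robo4 and the sialomucin Emcn. They were chosen by symbol as pan-endothelial genes, and all 10 were among the 24346 genes listed for both libraries. The omentum is a fold of abdominal fat that carries milky spots, clusters of lymphocytes, macrophages and stromal cells fed by blood vessels that include high endothelial venules (HEVs). Wild-type (WT) and Postn-DTR omenta gave 1 library each, taken 5 days after injection of diphtheria toxin (DT), so the toxin is common to both. Postn-DTR mice were heterozygotes carrying a DT receptor in the Postn gene, so that DT kills cells that use the Postn promoter, among them the Aldh1a2+ fibroblastic reticular cells (FRCs) of milky spots, while the other Postn copy was intact. Both genotypes were on a C57BL/6 background. Postn is used by mesenchymal cells of other organs too, and the study noted an enlarged cecum in some Postn-DTR mice after DT. Whether a library held 1 mouse or a pool, and the age and sex of the mice, were not given in the sources used here. With 1 library per genotype no spread between mice could be measured, so p-values are absent throughout and the differences below have no replicate check.

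Endothelial cells line blood vessels and hold to each other through adherens junctions, built on VE-cadherin, and tight junctions, in which claudin-5 is the main claudin of endothelium. Signals from VEGF through VEGFR2, the product of Kdr, drive their growth and permeability, and angiopoietins acting on TIE2, the product of Tek, keep vessels quiescent or loosen them. The question for these genes was whether the endothelial RNA of the omentum was kept 5 days after loss of Postn-expressing cells. Tek has a second interest, because the study counts it among the markers of Aldh1a2+ FRCs.

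The libraries were first read against their labels. By FPKM (fragments per kilobase of transcript, scaled to the mapped fragments of the library) Postn was at 58.3 in WT against 16.2 in Postn-DTR, 3.61-fold lower, and Aldh1a2 at 85.5 and 63.3. In Postn-DTR mice 1 Postn copy carries the receptor, and the part of this in the Postn value was not tested. All FPKM added up to 542190 for WT and 671882 for Postn-DTR. From the steps between low values the depth of Postn-DTR was estimated at 1.03 times that of WT. Pancreatic acinar genes, from an organ that adjoins the omentum, came to a total of 13081 for WT and 22.8 for Postn-DTR. The part of this difference in the values below was not tested beyond a scaling without these genes, which also set the totals equal. A 95% interval beside a ratio below was computed from the estimated read numbers and covers counting error only.

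In the deposited FPKM the endothelial signal as a whole was nearly the same in both libraries, while single genes lay on both sides of it. The 10 genes together had an FPKM of 354 (WT) and 353 (Postn-DTR), a ratio of 0.997. This depended on scaling: the ratio was 0.928 with the 75th percentiles matched and 0.785 at equal totals without acinar genes. The change of a gene was taken as log2(FPKM + 1) in Postn-DTR minus WT. It was below 0 for 5 genes and above 0 for 5, with a median of -0.06 and a range from -0.68 for Kdr to 0.48 for Cldn5. None of the 10 reached a 2-fold difference in either direction, where 3.12% of the 13127 genes compared (mean FPKM of at least 1) were at least 2-fold lower and 3.88% at least 2-fold higher. At 1.5-fold, 1 of the 10 was lower (Kdr) and 0 were higher, against 8.84% and 9.86% of all genes. Over all genes the median change was 0.02, and the 5th to 95th percentiles reached from -0.79 to 0.87, a band that held all 10 genes. In whole tissue, fewer endothelial cells and less RNA per endothelial cell cannot be told apart.

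**Figure D1:**
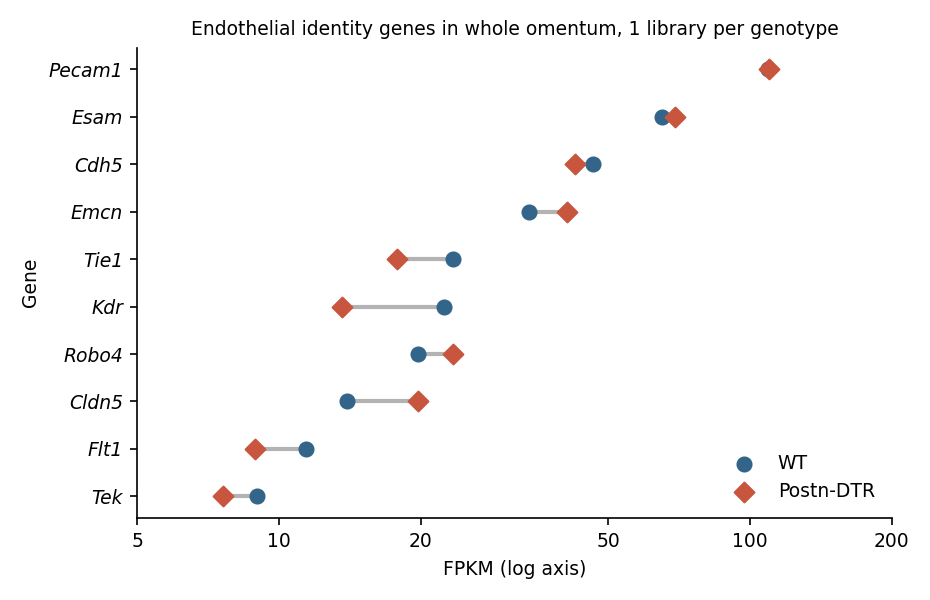
FPKM of the 10 endothelial identity genes on a log axis, with a circle for the WT library and a diamond for the Postn-DTR library joined by a grey line for each gene. Pecam1 lies at 109.0 and 109.5 with the symbols on top of each other, while Kdr lies to the left in Postn-DTR (22.4 and 13.6) and Cldn5 to the right (13.9 and 19.7).

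The levels spanned about an order of magnitude and kept the same genes at the top and the bottom. In WT the order by FPKM, which is scaled to transcript length, was Pecam1, Esam, Cdh5, Emcn, Tie1, Kdr, Robo4, Cldn5, Flt1 and Tek. In Postn-DTR the first 4 and the last pair stood in the same places, while Robo4 and Cldn5 moved ahead of Tie1 and Kdr. Kdr went from rank 6 to rank 8, and Cldn5 from rank 8 to rank 6. Neighbours whose counting intervals overlapped were Tie1 and Kdr in WT, and Cdh5 with Emcn and Cldn5 with Tie1 in Postn-DTR. The highest member stood at the percentile 94.4 of all genes compared in WT and 93.7 in Postn-DTR, and the lowest at 42.2 and 38.2.

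The VEGF receptors were lower in Postn-DTR, and Kdr had the lowest ratio of the 10 genes. Together they had an FPKM of 33.8 (WT) and 22.4 (Postn-DTR). Kdr (ENSMUSG00000062960, chromosome 5, 75932827 to 75978458 on the minus strand, GRCm38), which encodes the main signalling receptor of VEGF, was at 22.4 in WT against 13.6 in Postn-DTR. The Postn-DTR level was 60.5% of the WT level (ratio 0.605, interval 0.571 to 0.642), and 6.7% of all genes compared had a change as low. Flt1 (ENSMUSG00000029648, chromosome 5, 147561604 to 147726011 on the minus strand), whose product binds VEGF tightly and can act as a decoy, was at 11.4 and 8.88, a ratio of 0.778 (0.725 to 0.835). Both receptors were thus lower in Postn-DTR by more than counting error, and by unequal amounts. Within a library, where no scaling enters, Kdr was at 1.96 times Flt1 in WT and 1.53 times in Postn-DTR.

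Of the VEGF ligands and co-receptors, 1 rose and the others lay within 2-fold of WT. Vegfa, the main ligand of Kdr, was at 79.7 and 51.6, and Vegfb, a ligand of Flt1, at 56.5 and 30.6. Vegfc (8.69 and 5.88) and Vegfd (listed as Figf, 26.8 and 28.1) act mainly on the lymphatic receptor. Pgf, another ligand of Flt1, rose from 1.01 to 3.43, a change of 1.14, and of 0.88, under 2-fold, at equal totals without acinar genes. The co-receptors Nrp1 (32.4 and 22.1) and Nrp2 (11.7 and 8.60) lay on the lower side as Kdr did. Of the 7 genes on this list 5 had a change below 0, 0 were at least 2-fold lower and 1 at least 2-fold higher, with a median of -0.49. The ratio of Vegfa to Kdr was 3.56 in WT and 3.80 in Postn-DTR, so ligand and receptor stood in nearly the same proportion.

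The TIE receptors were also on the lower side. Tie1 (ENSMUSG00000033191, chromosome 4, 118471191 to 118490061 on the minus strand), an orphan receptor that forms complexes with TIE2, was at 23.4 in WT against 17.8 in Postn-DTR, a ratio of 0.760 (0.713 to 0.810). Tek (ENSMUSG00000006386, chromosome 4, 94739289 to 94874976 on the plus strand) was at 8.96 and 7.61, a ratio of 0.850 (0.772 to 0.935) and a change of -0.21. The intervals of both ratios overlapped, and the ratio of Tek to Tie1 was 0.383 in WT and 0.428 in Postn-DTR. The other markers of Aldh1a2+ FRCs did not share a direction: of 5 compared, 1 was at least 2-fold lower (Postn) and 1 at least 2-fold higher (Ptx3, at 1.40 and 6.30), with a median change of -0.11. Phex, also on this list, was lower at 0.340 and 0.0137 but under the expression minimum. Whole tissue does not show how much of the Tek RNA came from endothelium and how much from FRCs.

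Among the ligands of TIE2, Angpt2 rose from 7.68 (WT) to 17.4 (Postn-DTR), 2.27-fold. This call depended on scaling: the change was 1.08 as deposited, 0.99 once the 75th percentiles were matched and 0.76 at equal totals without acinar genes. Angpt2 is made by endothelial cells and loosens vessels in most settings, whereas Angpt1, made by mural cells, stabilises them and was at 2.41 and 1.54. The ratio of Angpt2 to Angpt1 was 3.19 in WT and 11.3 in Postn-DTR. Ptprb, which encodes the phosphatase VE-PTP that acts on TIE2 and VE-cadherin, was at 11.7 and 14.2. Over the 7 angiopoietins and TIE partners 5 changes were above 0, 1 was at least 2-fold higher and 0 were at least 2-fold lower, with a median of 0.26.

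The 4 receptor tyrosine kinases among the 10 genes, a grouping made after their values were seen, all had a change below 0, with a median of -0.35, and the other 6 had a median of 0.17 with 5 above 0. The kinases had a joint FPKM of 66.2 (WT) and 47.8 (Postn-DTR), a ratio of 0.723, and the other 6 to 288 and 305, a ratio of 1.06. The kinases made up 18.7% of the endothelial signal in WT and 13.5% in Postn-DTR.

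Among the junction genes, Pecam1, Cdh5 and Esam were close to their WT levels and Cldn5 was higher. Pecam1 (ENSMUSG00000020717, chromosome 11, 106654217 to 106750628 on the minus strand), the gene of the adhesion molecule CD31, was at 109.0 in WT against 109.5 in Postn-DTR, a ratio of 1.0 (0.975 to 1.04). Cdh5 (ENSMUSG00000031871, chromosome 8, 104101625 to 104144511 on the plus strand), which encodes VE-cadherin, was at 46.5 and 42.4, a ratio of 0.912 (0.872 to 0.953). Esam (ENSMUSG00000001946, chromosome 9, 37528078 to 37538319 on the plus strand), an adhesion molecule of endothelial cells and platelets, was at 64.9 and 69.3, a ratio of 1.07 (1.01 to 1.13). These 3 genes thus stayed between 0.912 and 1.07 times their WT level in the deposited FPKM.

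Cldn5 (ENSMUSG00000041378, chromosome 16, 18776847 to 18778262 on the plus strand), the tight junction claudin, stood apart from them at 13.9 in WT and 19.7 in Postn-DTR. Its ratio of 1.42 (1.25 to 1.62) was the highest of the 10 genes and rested on the fewest reads, about 392 and 575. Relative to Cdh5 within each library, Cldn5 was at 0.299 in WT against 0.465 in Postn-DTR. Kdr against Cldn5 went from 1.61 to 0.688, so the gene with the higher FPKM of this pair was Kdr in WT and Cldn5 in Postn-DTR. Of the partners of these junction proteins, none passed the fold threshold. Of 15 compared 0 were at least 2-fold lower and 0 at least 2-fold higher, with 7 changes below 0, 8 above 0 and a median of 0.01. Ctnnb1, which encodes the catenin that binds VE-cadherin, was at 141.1 and 129.1, and Tjp1, a zonula occludens gene, at 14.9 and 14.6. Others were as far from WT as Cldn5, among them Jam3 (19.4 and 12.6, a change of -0.58) and Cgnl1 (29.6 and 42.0, a change of 0.49).

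Robo4 and Emcn were on the higher side. Robo4 (ENSMUSG00000032125, chromosome 9, 37401897 to 37415115 on the plus strand), an endothelial member of the roundabout family that stabilises vessels, was at 19.7 in WT against 23.4 in Postn-DTR, a ratio of 1.19 (1.12 to 1.26). Emcn (ENSMUSG00000054690, chromosome 3, 137341067 to 137432185 on the plus strand), a mucin-like protein of capillary and venous endothelium, was at 34.0 and 40.9, a ratio of 1.20 (1.13 to 1.28). Of the partners of ROBO4, Unc5b was at 4.15 and 3.66, Slit2 at 2.88 and 1.79 and Slit3 at 57.8 and 69.4, and the other 4 on the list were under the expression minimum. Robo4 and Esam are near neighbours, 113 kb apart on chromosome 9 and on the same strand. Of the genes between them, Msantd2 was lower, at 11.1 and 8.04, and Robo3 was under the minimum, at 0.00949 and 0.0183. Just past Esam, Vsig2 (7.71 and 8.44) and Nrgn (5.74 and 7.0) were higher.

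**Figure D2:**
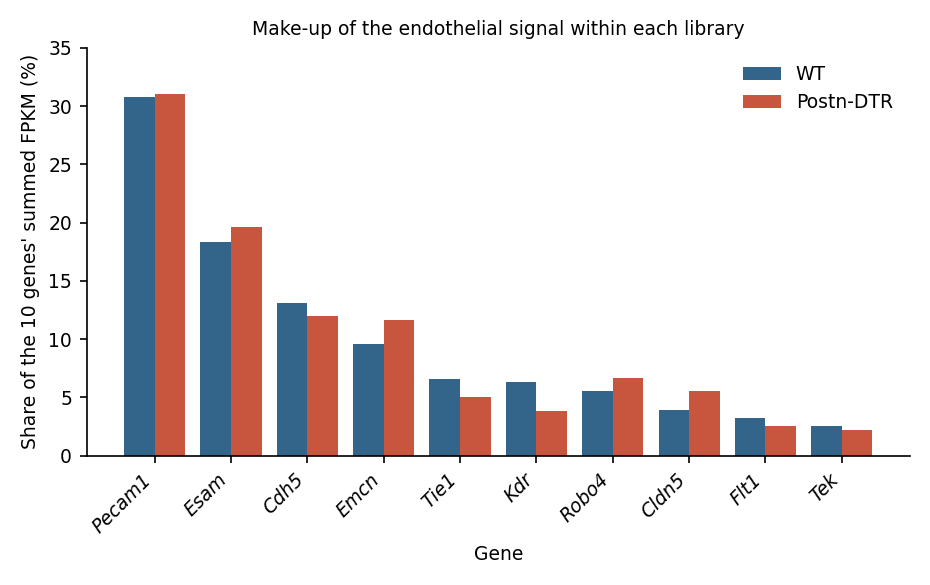
Share of each gene in the summed FPKM of the 10 endothelial identity genes, in percent, with bars from 0 for the WT and the Postn-DTR library. Kdr has the largest loss of share (6.33% and 3.84%), and Emcn the largest gain (9.60% and 11.6%).

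Because the libraries differ in their totals, each gene was also expressed as its share of the 10 genes within its own library, which no scaling between libraries can move. Kdr made up 6.33% of the summed FPKM in WT and 3.84% in Postn-DTR. Tie1 went from 6.60% to 5.04%, Flt1 from 3.22% to 2.52% and Tek from 2.53% to 2.16%. Cdh5 lost share too, from 13.1% to 12%. The share of Pecam1 was 30.8% and 31.0%, and Esam (18.3% and 19.6%), Emcn (9.60% and 11.6%), Robo4 (5.56% and 6.63%) and Cldn5 (3.92% and 5.58%) gained. The differences between the genes are thus present without any choice of scaling, while the direction of a single gene is not always.

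**Figure D3:**
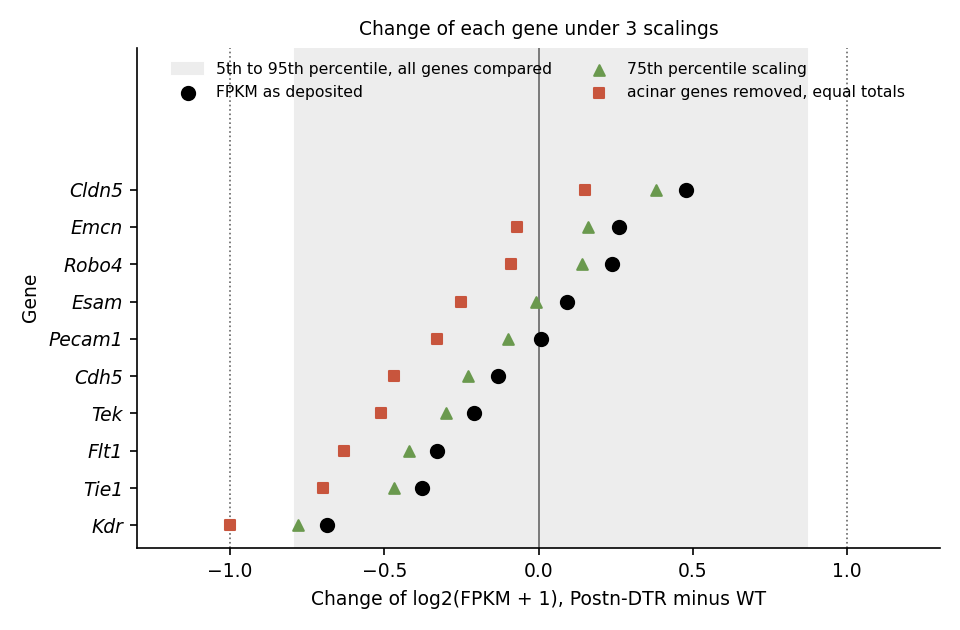
Change (Postn-DTR minus WT) on the log2(FPKM + 1) scale for each gene in the deposited FPKM (black circles), after scaling to the same 75th percentile (green triangles) and with the acinar genes removed and equal totals (red squares). The grey band is the 5th to 95th percentile of all genes compared, from -0.79 to 0.87, and dotted lines mark 2-fold. At equal totals only Cldn5 stays above 0, at 0.15, and Kdr reaches -1.0.

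Once the acinar genes were taken out and the libraries set to an equal total, the median change of all genes shifted by -0.30, and 9 of the 10 genes were then below 0. The acinar genes were 13081 of the WT total of 542190. Setting the totals equal, more than removing these genes, thus made the shift. Pecam1 moved to -0.33, Esam to -0.25, Robo4 to -0.09 and Emcn to -0.07, so the direction of these 4 genes depended on scaling. Kdr (-1.0), Tie1 (-0.70), Flt1 (-0.63), Tek (-0.51) and Cdh5 (-0.47) kept theirs, and Cldn5 stayed higher at 0.15. Kdr then counted as at least 2-fold lower, 1 of the 10 genes against 5.63% of all genes, and 0 were at least 2-fold higher, against 2.27%. With scaling to the 75th percentile 0 of the 10 were called, where 3.74% of all genes were lower and 3.31% higher, and 0 with all genes centred on a median of 0, where these shares were 3.25% and 3.72%.

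The 4 genes that bear most on the contrast are shown with the 250 bases before their RefSeq start, the stretch where the basal promoter lies. They are Kdr, with the lowest ratio, its relative Flt1, Tek, which the study used as a marker of FRCs, and Cldn5, with the highest ratio. Capitals mark GGAA or its reverse TTCC, the core letters of binding sites of ETS factors, a family that acts at many endothelial promoters. 
Kdr (chr5:75978456-75978705, minus strand, GRCm38.p6): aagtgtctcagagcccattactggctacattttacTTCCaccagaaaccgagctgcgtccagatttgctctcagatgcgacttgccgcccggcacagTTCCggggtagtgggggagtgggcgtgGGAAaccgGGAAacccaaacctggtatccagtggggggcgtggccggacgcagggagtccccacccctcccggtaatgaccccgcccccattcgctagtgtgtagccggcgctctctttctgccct
Flt1 (chr5:147726012-147726261, minus strand, GRCm38.p6): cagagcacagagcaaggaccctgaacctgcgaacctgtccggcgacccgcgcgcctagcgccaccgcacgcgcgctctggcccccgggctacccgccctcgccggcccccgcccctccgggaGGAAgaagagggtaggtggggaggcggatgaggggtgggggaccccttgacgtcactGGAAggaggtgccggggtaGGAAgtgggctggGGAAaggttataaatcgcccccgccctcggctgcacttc
Tek (chr4:94739039-94739288, plus strand, GRCm38.p6): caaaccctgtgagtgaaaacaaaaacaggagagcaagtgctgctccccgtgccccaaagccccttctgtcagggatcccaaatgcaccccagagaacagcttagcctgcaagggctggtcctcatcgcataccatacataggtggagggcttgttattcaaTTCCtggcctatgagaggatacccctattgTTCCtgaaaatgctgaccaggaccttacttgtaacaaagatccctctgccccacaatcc
Cldn5 (chr16:18776597-18776846, plus strand, GRCm38.p6): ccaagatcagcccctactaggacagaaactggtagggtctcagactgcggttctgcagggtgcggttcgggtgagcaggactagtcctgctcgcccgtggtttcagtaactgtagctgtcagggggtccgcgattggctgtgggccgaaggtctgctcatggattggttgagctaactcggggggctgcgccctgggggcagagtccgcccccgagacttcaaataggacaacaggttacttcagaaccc
Read on both strands, GGAA occurred 4 times before Kdr, 4 times before Flt1, 2 times before Tek and 0 times before Cldn5, and 93.4% of the 32851 mouse promoter windows of this length held it at least once. The longer form AGGAAG, which contains GGAA, occurred 2 times before Flt1 and 0 times before Kdr, Tek and Cldn5, and was held by 29.5% of all windows. The GC box GGGCGG occurred 2 times before Kdr, 3 times before Flt1, 0 times before Tek and 1 time before Cldn5, against 32.7% of windows that held any. The GC content was 61.6% for Kdr, 70.4% for Flt1, 51.2% for Tek and 59.6% for Cldn5, with a median of 52.4% over all windows. Of the other matched genes, Emcn had GGAA 4 times and AGGAAG 2 times, Robo4 had them 3 times and 1 time, and Tie1 7 times and 1 time, so neither motif divided the genes that were lower from those that were higher. A window without these letters says nothing of the factors bound. Sequences were matched for 7 of the 10 genes.

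Transcript length moved with the changes. The longest transcripts among the 10 genes were those of Flt1 (6895 bp) and Kdr (5924 bp), both lower, and the shortest were those of Cldn5 (1416 bp) and Esam (1865 bp), both higher. Across the 10 genes Spearman's rho between length and change was -0.72, where the genes share the same 2 libraries. Over 12224 genes compared with a known length it was -0.14, and over 29 other pan-endothelial genes it was 0.02. The median change of all genes was 0.18 in the shortest of 10 bins of length and -0.03 in the longest. After the median of each gene's own length bin was subtracted, an alternative chosen after the data were seen, Kdr was at -0.64 and Cldn5 at 0.38. Robo4, with 4952 bp, was higher although its transcript is long. The part of transcript length in these changes beyond this step was not tested.

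**Figure D4:**
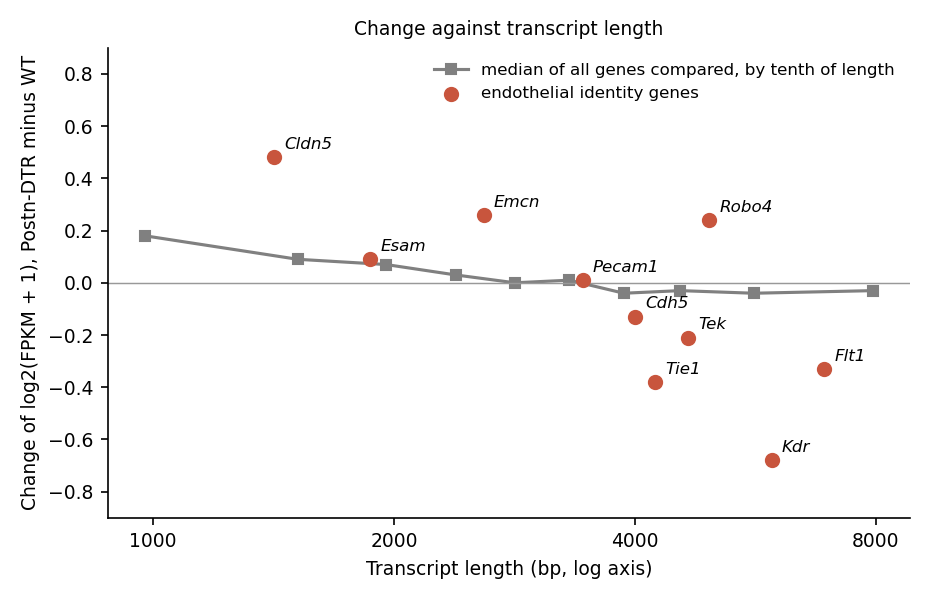
Change (Postn-DTR minus WT) on the log2(FPKM + 1) scale against the length of the longest protein-coding transcript in bp on a log axis, for the 10 endothelial identity genes (red) and as the median of all genes compared in 10 bins of length (grey). The grey line runs from 0.18 to -0.03, and Kdr at -0.68 and Cldn5 at 0.48 lie away from it.

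The other pan-endothelial genes had a lower median change than the 10 genes. Of 29 compared 17 had a change below 0 and 12 above 0, and their median was -0.21. On the scale with the pseudocount 0 were past 2-fold in either direction, although by the FPKM alone Clec14a was 2.01-fold lower. Their joint FPKM was 1203 (WT) and 1114 (Postn-DTR), a ratio of 0.926. At 1.5-fold, where 8.84% of all genes were lower and 9.86% higher, 5 of the 29 were lower, namely Clec14a (14.4 and 7.16), Ushbp1 (13.4 and 6.84), Arhgef15 (11.1 and 5.81), Calcrl (6.26 and 3.23) and Sox18 (38.3 and 22.6), and 1 was higher, Icam2 (34.3 and 58.0), which encodes an adhesion molecule that leukocytes also carry. The ETS factors, whose cell source in whole tissue was not tested, differed among themselves. Erg was at 9.21 and 9.72, Fli1 at 14.8 and 13.5, Elk3 at 20.5 and 15.6, Ets2 at 19.5 and 27.1 and Ets1 at 35.4 and 17.6, the last 2.01-fold lower by the FPKM alone and at a change of -0.97 with the pseudocount.

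Markers of other cells that carry or accompany these genes held changes past 2-fold. Macrophages and monocytes carry Pecam1, and monocytes carry Flt1. Of their 8 markers 4 were at least 2-fold higher and 1 at least 2-fold lower, with a joint FPKM of 2960 (WT) and 4783 (Postn-DTR). The integrin gene Itgam (46.8 and 251.9), Adgre1 (41.1 and 137.6), Cd68 (113.8 and 369.4) and Ly6c2 (50.9 and 150.3) rose, and Ccr2, the chemokine receptor of monocytes, fell from 39.6 to 16.4. The 9 T and B cell markers all had a change below 0, 4 of them past 2-fold, and summed to 495 and 346. Those 4 were the B cell gene Ms4a1 (56.8 and 23.6) and the T cell genes Cd3e (15.6 and 6.82), Cd4 (11.3 and 3.41) and Cd8a (2.81 and 0.897). Platelets, which carry Pecam1 and Esam, had 4 of 8 markers above the minimum, 1 of them at least 2-fold higher, Treml1 (2.40 and 10.2). The platelet receptor genes Gp9 (0.282 and 0.545) and Itga2b (1.88 and 3.0) were near or under the minimum. Pf4, which macrophages also express, was at 146.9 and 280.5. The part of these cells in the Pecam1, Esam and Flt1 values was not tested. Without Pecam1 and Flt1 the summed FPKM of the remaining genes had a ratio of 1.0. This cannot decide the question, because Pecam1 itself had a ratio of 1.0 and Esam was still in the sum.

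Markers of mural cells, the pericytes and smooth muscle cells that wrap endothelium, were mostly on the lower side. Of 12 3 were at least 2-fold lower and 0 at least 2-fold higher, with a median of -0.73. Rgs5 fell from 30.6 to 2.56 and Notch3 from 21.3 to 3.53, both of them pericyte genes, and Pdgfrb, which fibroblasts also use, fell from 41.3 to 17.3. Not all fell as far: Mcam (85.8 and 55.0) lay within 2-fold and Kcnj8 (17.3 and 15.4) close to its WT level. Genes of smooth muscle lay on both sides, with Acta2 (94.6 and 108.9), Tagln (127.7 and 151.4) and Cnn1 (2.31 and 5.58) higher, and Myh11 (32.2 and 18.3) and Des (68.1 and 42.5) lower. By the FPKM alone Cnn1 was 2.42-fold higher, and its change with the pseudocount was 0.99. Cspg4 (2.11-fold lower) and Abcc9 (2.18-fold lower) were likewise past 2-fold by the FPKM alone. The lymphatic endothelial list had 6 of 8 genes above the minimum with a median of 0.17 and 0 past 2-fold, and its sum was 183 and 184. Its defining factor Prox1 was at 0.0218 and 0.0738, while Lyve1 (108.5 and 95), which macrophages also make, and Pdpn (46.6 and 57.1), which FRCs and mesothelium also make, gave most of the sum. The others included Ccl21a (17.0 and 18.6) and Flt4 (2.53 and 3.08).

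**Figure D5:**
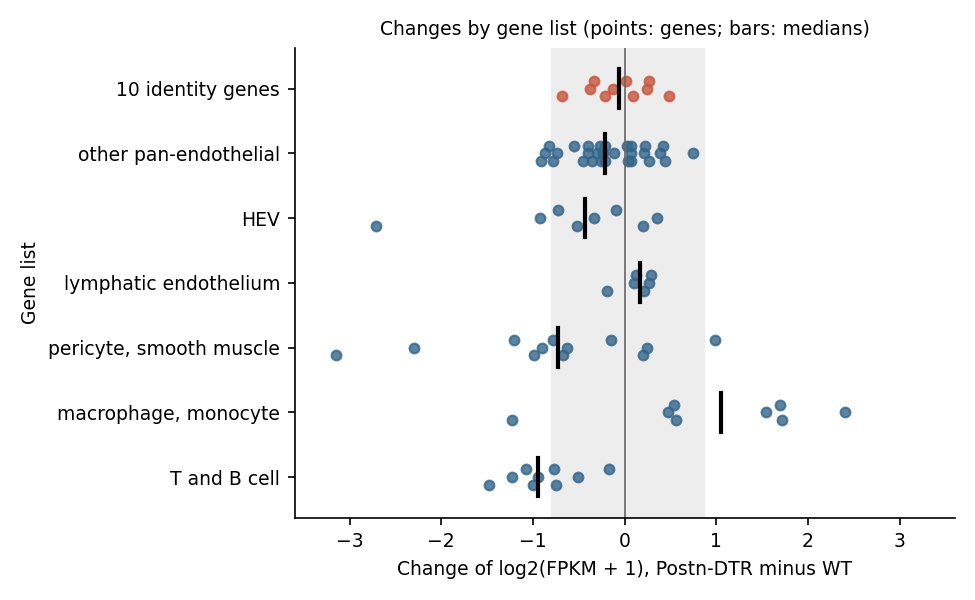
Change (Postn-DTR minus WT) on the log2(FPKM + 1) scale of each gene compared (points) and the median (black bar) for the 10 endothelial identity genes (red) and 6 other lists (blue), with the 5th to 95th percentile of all genes in grey. The identity genes lie between -0.68 and 0.48, while pericyte and smooth muscle genes reach -3.15 and macrophage and monocyte genes 2.40.

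Cxcl12, the chemokine that the study followed on HEVs, was set against the endothelial genes. It fell from 180.0 (WT) to 69.5 (Postn-DTR). Per unit of Cdh5 within each library it was 3.87 in WT and 1.64 in Postn-DTR, and per unit of Pecam1 it was 1.65 and 0.635. The Cxcl12 difference was thus not matched by the endothelial identity genes in these 2 libraries. The study found Cxcl12 RNA in FRCs as well as endothelial cells, so these quotients are not levels per endothelial cell. In sorted cells, by quantitative PCR, the study found Cxcl12 RNA lower in Postn-DTR mice in endothelial cells and in FRCs. The part of each source in these 2 libraries was not tested. At the protein level the study found cells with HEV markers equally present in both genotypes. Of the 8 HEV genes compared 1 was at least 2-fold lower (Glycam1, which fell from 10.6 to 0.775) and 0 were at least 2-fold higher, with a median of -0.43. A change below 0 was seen for 6 of the 8, among them Madcam1 (1.51 and 0.988). The other 2, Ackr1 (29.4 and 37.8) and Chst4 (1.43 and 1.80), were higher. By the FPKM alone Fut7, which encodes a fucosyltransferase of selectin ligands, was 4.14-fold lower at 1.65 and 0.399, and its change with the pseudocount was -0.92.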

How the data were processed

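Total RNA of whole omentum was made into stranded, polyadenylated-RNA libraries, 1 per genotype, as the labels state. The authors deposited FPKM, 1 value per gene symbol and library. The submitters' processing notes name TopHat2 2.1.1, Bowtie2 2.2.8, SAMtools 0.1.18, Cuffdiff 2.2.1 and mm10; the annotation and whether strand was used were not given in the sources used here.

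Groups came from the genotype label. The change was log2(FPKM + 1), Postn-DTR minus WT, for genes whose FPKM averaged 1 or more; a pseudocount understates changes of low genes. A gene was called at 2-fold, and 1.5-fold was an alternative. Ratios used the FPKM without pseudocount. No test was possible. Depth was estimated from 781 low values (FPKM under 0.1), of which 69.8% came out within 0.05 of a whole read; 174 of 723 genes low in both libraries shared 1 ratio of 0.967. Intervals are exact (Clopper-Pearson, 95%) on estimated reads and rest on annotated lengths. Positions and lengths are from GENCODE release M21 (GRCm38, the assembly of mm10), promoters from RefSeq (GRCm38.p6). Cdh5 overlaps an antisense gene, Gm29682, listed at 0 in both libraries; no other member overlaps a gene there.

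The 10 genes and 22 other lists were chosen with earlier results of these data known. Genes named are the 10 members and listed genes past 2-fold, partners of members or examples of a list. The acinar genes were given as a sum. A listed gene of activated endothelium, and the count of that list, are not reported here. Outside this rule, and after their values were seen, the text names the pan-endothelial genes past 1.5-fold, Msantd2, Robo3, Erg, Fli1, Ets1, Ets2, Elk3, Ctnnb1, Tjp1, Jam3, Cgnl1, Fut7, the lymphatic genes, Acta2, Tagln, Cnn1, Myh11, Des, Cspg4, Abcc9, Pf4, Gp9, Itga2b, Nr2f2 and Apln. The same holds for Phex, Vsig2, Nrgn, Lipe, Madcam1, Ackr1, Chst4, Vcam1, Icam1, Cxcl10, Sele, Mcam, Kcnj8, S100a8 and S100a9. How reads shared with paralogs were counted was not given in the sources used here. Alternatives were pseudocounts of 0.1 and 5, 3 scalings, other minimums and leaving out members. The calculation of changes and depth was tested on simulated data. Python 3.11.15, pandas 2.3.3, numpy 2.4.6, scipy 1.17.1 and matplotlib 3.10.9 were used.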

Additional observations from a re-analysis of the deposited data

How the results depend on the processing

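The summed FPKM ratio of the 10 genes (0.997) became 0.928 with scaling to the 75th percentile and 0.785 with the acinar genes removed and equal totals, and the median change (-0.06) became -0.16 and -0.40 under the same settings. The number of genes at least 2-fold lower, 0 as deposited, became 1 (Kdr) at equal totals, and 1 (Kdr) with a 1.5-fold threshold. Both scalings multiply the Postn-DTR values by a factor below 1 (0.931 and 0.788), which lowers every change. Pseudocounts of 0.1 and 5, centring, other FPKM minimums, leaving out Tek or Pecam1 and Flt1, and subtracting the median of each bin of transcript length kept the median between -0.08 and 0.01 and called no member. A minimum of 10 dropped Tek. A pseudocount or minimum cannot turn a direction, but 3 scalings and the length step can. In these 4, Kdr, Tie1, Flt1, Tek and Cdh5 were lower in 4, Cldn5 was higher in 4, Emcn and Robo4 were higher in 3 and lower in 1, Esam was higher in 2 and lower in 2, and Pecam1 was lower in 3 and at 0 in the other. Over all settings Kdr ranged from -1.0 to -0.56 and Cldn5 from 0.15 to 0.50. No paired analysis was possible because each genotype has 1 library, which also leaves no replicate to omit. Each gene rested on about 392 reads or more per library, so the lack of replicates, more than depth, limits what can be said of it.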

Other observations

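Further lists held genes of endothelial states and vessel types. Over all genes, 3.12% were at least 2-fold lower and 3.88% at least 2-fold higher. Among genes of activated endothelium, Selp, the gene of P-selectin, rose from 8.55 (WT) to 44.3 (Postn-DTR), and Plaur, the urokinase receptor, from 25.3 to 77.0. Platelets also make Selp, and macrophages Plaur, so the source in whole tissue is not known. Cxcl9 fell from 7.60 to 3.22. Other genes of this list did not follow Selp and Plaur. Vcam1 (a change of 0.07) and Icam1 (0.34) lay within 2-fold of WT. Cxcl10 was on the lower side (-0.49), also within 2-fold, and Sele was lower but under the expression minimum. Of 17 endothelial transcription factors compared 1 was at least 2-fold higher, Klf2, which responds to blood flow and is also used by lymphocytes, at 96.2 and 246.8, with a median change of -0.12 over the list.

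By vessel type, 1 of 10 arterial genes was at least 2-fold higher, Efnb2 (5.27 and 14.4), and 0 were at least 2-fold lower, with a median change of 0.34. The venous list had 1 of 6 at least 2-fold higher, Selp, with Nr2f2, which sets venous fate, at 17.1 and 9.13. In the capillary list, with a median of 0.05, 1 of 9 was at least 2-fold lower: Aplnr, the apelin receptor, fell from 15.8 to 1.85, or 8.56-fold, while its ligand Apln was at 28.3 and 17.4. Of 8 tip cell and sprouting genes 2 were at least 2-fold higher, Angpt2 and Pgf, with a median of -0.06. At equal totals without acinar genes Efnb2 (0.98), Angpt2 (0.76), Pgf (0.88) and Csf3r (0.78, a neutrophil gene) were under 2-fold. Among other cells, 3 of 7 neutrophil genes were at least 2-fold lower and 2 at least 2-fold higher, with a median change of 0.67. Their joint FPKM was 376 (WT) and 619 (Postn-DTR). Most of it came from S100a8 (169.7 and 338.6) and S100a9 (156.6 and 249.3), both higher but under 2-fold. Camp (33.1 and 8.98), Elane (5.86 and 1.85) and Mpo (3.84 and 0.726), which immature cells make, fell, while the receptor genes Cxcr2 (0.514 and 4.03) and Csf3r (6.87 and 15.9) rose. In the adipocyte list 1 of 8 genes was at least 2-fold lower, Pparg (59.1 and 27.3), and Lipe (278.8 and 139.2) was close to this threshold. Of these 8 genes 7 had a change below 0, with a median of -0.57. In the mesothelial list 1 of 6 was at least 2-fold lower, Lrrn4 (62.7 and 29.2), and 0 were at least 2-fold higher. Most of that list went the other way, with 4 of the 6 changes above 0 and a median of 0.30. None of these differences has a replicate.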
